A study of Mus musculus with 11 samples.

Results

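Integrins, selectins and the adhesion molecules that work with them were measured as RNA in skin from 11 mice at 7 weeks after bone marrow transplantation. The genes are every row of the panel whose symbol is an integrin chain (Itga or Itgb), a selectin or the selectin ligand, a numbered Icam, Vcam1, Cd44 or Cd47, with Itgax left out. Those described here number 14 of the 754 genes on a NanoString panel for myeloid innate immunity; its barcoded probes count RNA molecules without amplification. Of the 14, 5 are integrin chains of leukocytes and 2 were taken as integrin chains of stroma and epithelium. The others are 3 selectins or their ligand, 2 counter-receptors of the immunoglobulin superfamily and 2 other adhesion receptors. All 14 lay above the background of the negative control probes in every mouse and passed the filter on low values. The skin came from the nape of the neck. The study modelled chronic graft-versus-host disease and asked how skin without mast cells differs in it. All recipients received 850 cGy of ionizing radiation and then 5000000 bone marrow cells and 2000000 splenocytes by vein, and the methods describe females of 8 to 10 weeks of age. The 3 syngeneic mice and the 3 allogeneic wild type mice (allo-WT) were C57BL/6j recipients. The 5 allogeneic mast cell-deficient mice (allo-MCd) were recipients of the strain B6.Cg-KitW-sh/HNihrJaeBsmGlliJ, which carries the W-sh allele of Kit in all of the recipient's own cells, so that the effect of lacking mast cells cannot be told apart from other effects of that allele in the recipient. The labels name LP/J donors for all 11 mice, whereas the methods name C57BL/6J donors for the syngeneic group.

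Values are the normalized counts as deposited, and "level" below means such a count. The counts before normalization, recovered from the steps between the deposited values, summed to 831632 to 1460260 per mouse, and the negative-control background lay at 14.3 to 37.5 normalized counts. The library of allo-WT mouse 1 had the lowest total, the highest scaling factor (2.54) and a strongest positive control of 3975 counts against 17615 to 33547 in the other 10. Of the 8 mast cell genes listed, 7 were on the panel, and their summed level was 3851 to 9348 in syngeneic, 2397 to 14803 in allo-WT and 139 to 656 in allo-MCd skin, with 2 of the 7 above background in every allo-MCd mouse. Kit itself was at 87.1 ± 36.1, 59.5 ± 42.0 and 14.04 ± 5.43 (SD, n = 3, n = 3 and n = 5) in the respective groups. The skin label could be checked against few genes, since Cdh1 was the only keratinocyte gene of the 12 listed among the rows used here; it was at 2216 or more in every mouse.

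Leukocytes leave the blood in an ordered series of adhesion steps. Selectins let them roll along the vessel wall by binding sugar-decorated ligands such as PSGL-1, the product of Selplg. Chemokine signals then switch leukocyte integrins to their binding shape, and these hold to ICAM-1 and VCAM-1 on the endothelium before the cell passes into the tissue. In the tissue, integrins with the beta1 chain and CD44 bind matrix proteins and hyaluronan, and keratinocytes and fibroblasts use them too. An integrin is a pair of an alpha and a beta chain, so that Itgam and Itgal products both depend on that of Itgb2, while Itga4 can pair with Itgb1 or Itgb7.

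In allo-MCd against allo-WT skin, RNA of most adhesion genes was lower. Of the 14, 12 fell and Cd44 rose at an adjusted p of at most 0.05 in limma, while Selp did not pass. Among all 696 genes tested, 50% were called lower and 10.9% higher, so a lower level was common on the panel. The median difference over the 14 genes was -1.999 on the log2 scale, and over all genes tested it was -0.72. For 10 of the 14 every allo-MCd mouse lay below every allo-WT mouse, which was true of 46.0% of all genes tested, and each of these 10 had the smallest p that 56 arrangements of the mice allow in a two-sided exact permutation test (0.0179). Each mouse was also scaled instead to the same median over all genes tested. This moved the median difference of all genes to 0.12 and that of the 14 to -1.157. With that scaling 8 of the 14 were called lower and Cd44 higher, against 30.3% and 35.6% of all genes. The 4 that lost the call under that scaling were Itgb1, Icam1, Sele and Cd47, of which Cd47 turned to 0.39.

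In allo-WT against syngeneic skin, 6 of the 14 rose and none fell by limma, with 7 at an unadjusted p under 0.05, all of them higher. They were Itgb2, Itgam, Itgal, Itga4, Itgb7 and Vcam1. The shares of all genes called were 28.3% higher and 14.9% lower. The same 6 were called higher with median scaling, where 24.3% of all genes were called higher and 27.3% lower. With 3 mice a group the exact permutation test cannot go below 0.1, a value that these 6 and Icam1 reached. Those 7 genes had no overlap between the groups, as had 33.6% of all genes in that direction.

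In allo-MCd against syngeneic skin, 8 of the 14 fell and Cd44 rose, where 36.9% of all genes were called lower and 4.60% higher. The 8 were Itgb2, Itgam, Itga4, Itgb7, Itgb1, Itga5, Selplg and Cd47. With median scaling Itgb2, Itgam, Itga4 and Selplg were called lower, 4 of the 14, and Cd44 higher, beside 13.5% and 13.9% of all genes. With the methods' test, a 3-group test with Tukey's comparison on the values without logarithm, Selplg alone was called lower and none higher, the adjusted p of Itgb2 being 0.402. The count of 8 dropped to 4 without syngeneic mouse 1 or without syngeneic mouse 3 and to 5 without allo-MCd mouse 1 or without allo-MCd mouse 4. The 3 comparisons use the same mice in pairs, so that they are not independent of each other.

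**Figure D1:**
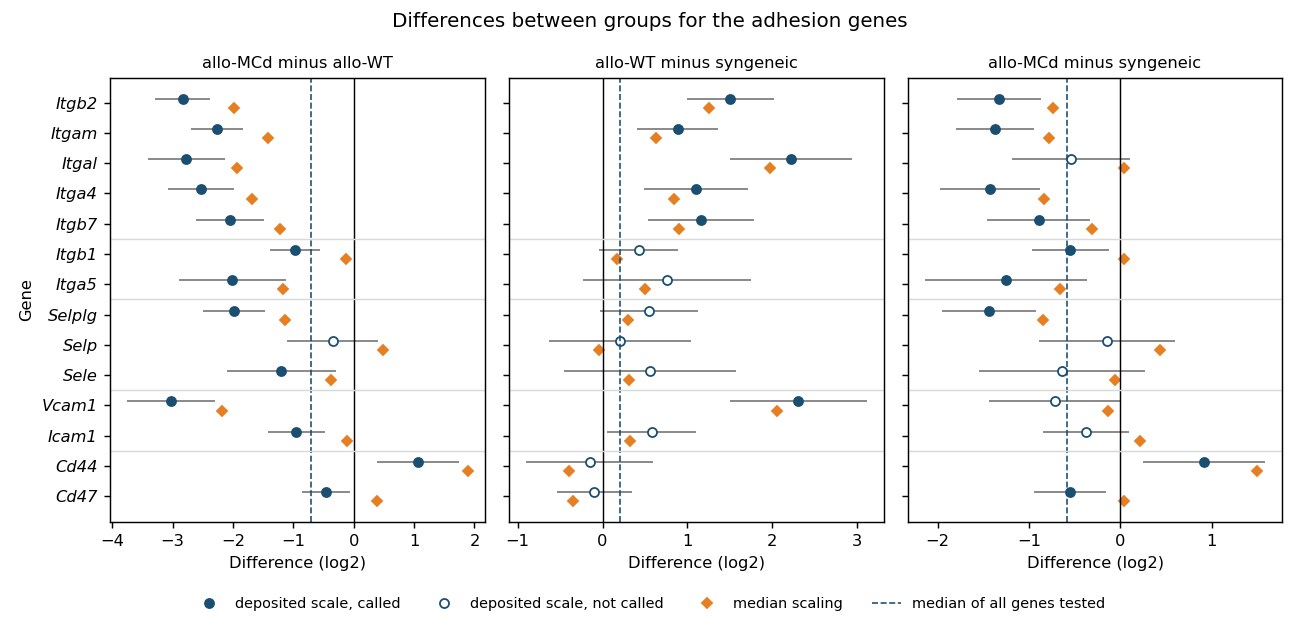
Log2 difference (x axis) of each adhesion gene (y axis) in the 3 comparisons, on the log2(normalized count + 1) scale, with 95% intervals from limma; filled circles passed an adjusted p of 0.05, open circles did not, and diamonds give the difference after scaling each mouse to the same median. The dashed line is the median of all 696 genes tested, which lies at -0.72 in allo-MCd minus allo-WT.

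The 5 leukocyte integrin chains all fell in allo-MCd against allo-WT skin and all rose in allo-WT against syngeneic skin, on the deposited scale and with median scaling of all 11 mice. Itgb2 encodes CD18, the beta chain shared by the beta2 integrins. Its level was 1103, 1192 and 1092 in the syngeneic mice, 4406, 2646 and 2839 in the allo-WT mice, and 356, 407, 447, 481 and 588 in the allo-MCd mice. The groups did not overlap, with allo-WT highest and allo-MCd lowest. The means were 1129 ± 55.1 (SD, n = 3), 3297 ± 965 (SD, n = 3) and 456 ± 87.4 (SD, n = 5). Itgb2 was 7.13-fold lower in allo-MCd skin than in allo-WT skin (log2 difference -2.83, SE 0.21, adjusted p = 8.03e-07). With median scaling that difference was -1.99, and it was -1.42 for Itgam, -1.93 for Itgal, -1.69 for Itga4 and -1.21 for Itgb7. Itgb2 was 1.51 higher on the log2 scale in allo-WT than in syngeneic skin (SE 0.24, adjusted p = 0.000488). Its difference of allo-MCd minus syngeneic was -1.33 (adjusted p = 0.00135), or -0.735 with median scaling.

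Itgam encodes CD11b, the alpha chain that joins CD18 as Mac-1 on monocytes, macrophages and neutrophils. Its level was 777, 971.5 and 711 in syngeneic, 1851, 1488 and 1239 in allo-WT, and 259, 346, 293, 305 and 376 in allo-MCd skin. The order of the groups was that of Itgb2, again without overlap. The log2 difference of allo-MCd minus allo-WT was -2.26 (SE 0.20, adjusted p = 2.43e-06), and that of allo-WT minus syngeneic was 0.89 (SE 0.22, adjusted p = 0.00721). That of allo-MCd minus syngeneic was -1.37 (adjusted p = 0.00114), or -0.78 with median scaling. With median scaling and without allo-WT mouse 1, the difference of allo-WT minus syngeneic was 0.55 and did not pass (adjusted p = 0.0744). Itgal encodes CD11a, the alpha chain of LFA-1, which lymphocytes use to bind ICAM-1. It was at 124, 295 and 165 in syngeneic, at 761, 1094 and 760.1 in allo-WT, and at 94.2, 107, 135, 156 and 144 in allo-MCd mice. The allo-WT mice stood above all others, while the syngeneic and allo-MCd mice overlapped. Itgal was 6.82-fold lower in allo-MCd skin than in allo-WT skin (log2 difference -2.77, SE 0.30, adjusted p = 9.98e-06) and 4.68-fold higher in allo-WT than in syngeneic skin (2.23, SE 0.33, adjusted p = 0.000399). Between allo-MCd and syngeneic skin its difference was -0.54, with a 95% interval of -1.19 to 0.10 and an adjusted p of 0.151, and it turned to 0.04 with median scaling.

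Itga4 encodes CD49d, the alpha4 chain that binds VCAM-1 and fibronectin. Its level was 528, 467 and 637 in syngeneic, 1501, 830.0 and 1253 in allo-WT, and 138, 186, 228, 219 and 249 in allo-MCd skin. No groups overlapped. The allo-MCd mean of 204 ± 43.2 was 5.77-fold below the allo-WT mean of 1195 ± 339 on the log2(value + 1) scale (difference -2.53, SE 0.25, adjusted p = 5.65e-06). Itgb7, the beta chain that pairs with alpha4 on gut-homing lymphocytes and also on mast cell progenitors, was at 307, 234 and 277 in syngeneic, at 413, 732 and 736 in allo-WT, and at 114, 124, 152, 151 and 198 in allo-MCd mice. It followed the same order without overlap, with allo-WT mouse 1 below the other allo-WT mice. The differences were -2.06 for allo-MCd minus allo-WT (SE 0.26, adjusted p = 3.34e-05), 1.16 for allo-WT minus syngeneic (adjusted p = 0.00732) and -0.90 for allo-MCd minus syngeneic (adjusted p = 0.0162), of which the last was -0.31 with an adjusted p of 0.364 after median scaling.

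Itgb1 and Itga5 stood for the integrins of stroma and epithelium. They were placed there by a list and not by these data, and no other chain of that kind was among the rows used here. Itgb1 encodes the beta1 chain, present on nearly all nucleated cells, keratinocytes, fibroblasts and leukocytes among them. Its level was 7242, 7189 and 8497 in syngeneic, 12845, 8480.4 and 9835 in allo-WT, and 4335, 5458, 5848, 4595 and 6023 in allo-MCd skin. All allo-MCd mice lay below all others, and allo-WT mouse 2 fell within the syngeneic range. The difference of allo-MCd minus allo-WT was -0.97 (SE 0.19, adjusted p = 0.000932), near the median of all genes, and after median scaling it was -0.13 (SE 0.15, adjusted p = 0.454). The allo-WT minus syngeneic difference was 0.43 with a 95% interval of -0.04 to 0.90 (adjusted p = 0.122), or 0.26 without allo-WT mouse 1 and 0.17 with median scaling, and that of allo-MCd minus syngeneic was -0.55 (adjusted p = 0.0392), 0.04 with median scaling.

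Itga5 encodes the alpha5 chain, which with beta1 forms the main receptor for fibronectin. It was at 464, 177 and 331 in syngeneic, at 979, 466 and 291 in allo-WT, and at 103, 133, 148, 88.5 and 175 in allo-MCd mice. The spread within syngeneic and allo-WT skin was wide and those groups overlapped, while every allo-MCd mouse lay below both. Itga5 was 4.03-fold lower in allo-MCd skin than in allo-WT skin (log2 difference -2.01, SE 0.41, adjusted p = 0.00111), and the difference was -1.17 with median scaling (SE 0.36, adjusted p = 0.0132). With median scaling and allo-WT mouse 1 left out, it was -0.76 and no longer passed (adjusted p = 0.0753), nor did Itga5 pass in the methods' test (adjusted p = 0.0682). Against syngeneic skin it was -1.25 (adjusted p = 0.0293), which without syngeneic mouse 1 became -0.94 (adjusted p = 0.14). Of the 9 fibroblast genes listed, 4 were on the panel, all above background in every mouse, and their summed level was 83886 to 180112 in syngeneic, 11664 to 132550.5 in allo-WT and 34579 to 81942 in allo-MCd skin. The syngeneic and allo-MCd ranges did not overlap. In that comparison 3 of the 4 were called lower on the deposited scale and none with median scaling, beside 36.9% and 13.5% of all genes. In allo-MCd minus allo-WT the 4 had a median difference of -0.378, or 0.464 with median scaling, so that Itga5 fell by more. The part of fibroblast RNA in the Itgb1 and Itga5 differences was not tested.

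**Figure D2:**
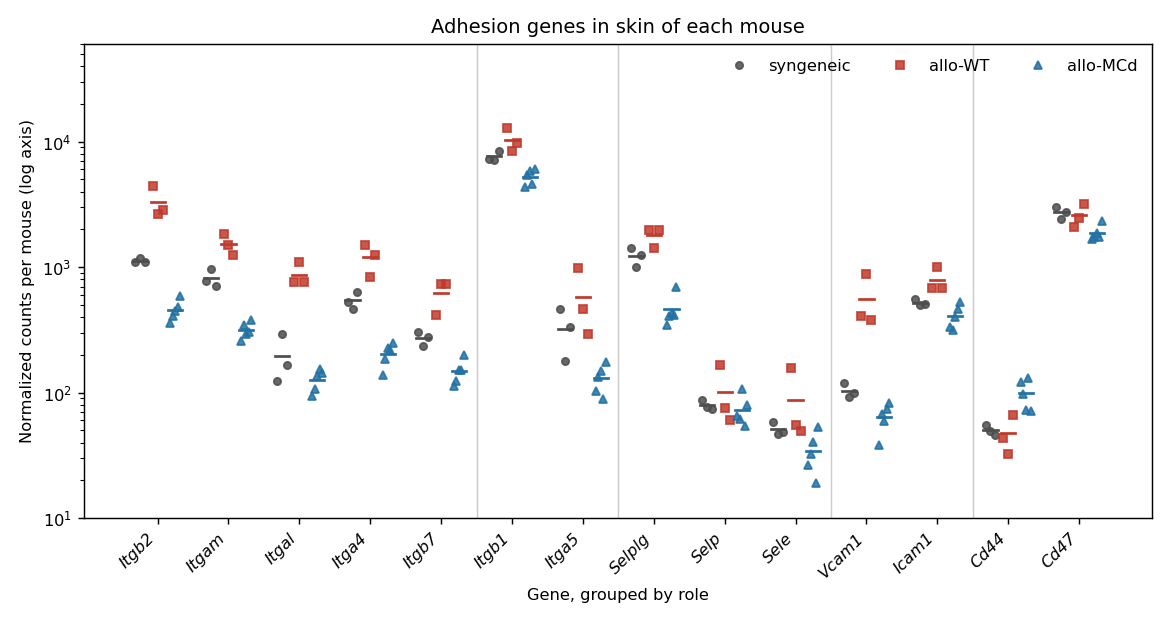
Normalized counts (y axis, log scale) of the 14 adhesion genes (x axis, by role) in each of the 11 mice, with a bar at each group mean. For Itgb2 the 5 allo-MCd mice lie at 356 to 588, below the syngeneic mice at 1092 to 1192 and the allo-WT mice at 2646 to 4406.

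A comparison within each mouse hardly depends on a scaling by 1 factor per mouse. The mean log2 level of Itgb2 and Itgam less that of Itgb1 and Itga5 was -0.99 to -0.07 in the syngeneic mice, -0.31 to 0.15 in the allo-WT mice and -1.36 to -0.74 in the allo-MCd mice. Because probes differ in efficiency, the level of this quantity has no meaning of its own and only its difference between groups was read. It was 1.06 lower in allo-MCd skin than in allo-WT skin (a difference of -1.06), without overlap. It was 0.61 higher in allo-WT than in syngeneic skin, where the ranges overlapped. The difference of allo-MCd minus syngeneic was -0.45, or -0.15 without syngeneic mouse 2. Quantile normalization, which is no such scaling, moved these differences to -1.15, 0.66 and -0.49 in the order given. Itgb1 and Itga5 themselves moved apart, since Itga5 less Itgb1 was 1.04 lower in allo-MCd skin than in allo-WT skin (a difference of -1.04), narrowly without overlap. For Itgb2 and Itgam against Itgb1 alone, the differences of allo-MCd minus allo-WT, allo-WT minus syngeneic and allo-MCd minus syngeneic were -1.57, 0.77 and -0.80. For Itgb2 less Itgb1 they were -1.86, 1.08 and -0.78, and no groups overlapped. No test was made of these differences, since the genes were chosen with results known.

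**Figure D3:**
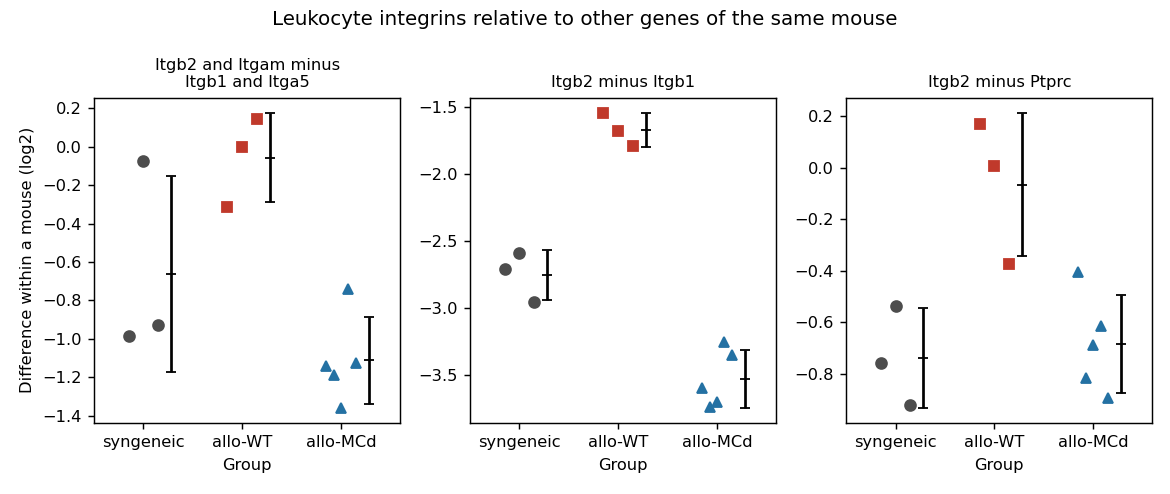
Differences between genes within each mouse (y axis, log2) by group (x axis), with points for mice and error bars for the group mean ± SD: Itgb2 and Itgam less Itgb1 and Itga5, Itgb2 less Itgb1, and Itgb2 less Ptprc, each panel with its own axis range. In the first panel the allo-MCd mice lie at -1.36 to -0.74 and the allo-WT mice at -0.31 to 0.15.

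The alpha chains did not all keep pace with their beta chain. Itgam less Itgb2 was -0.62 to -0.29 in syngeneic, -1.25 to -0.83 in allo-WT and -0.66 to -0.23 in allo-MCd mice, so that Itgam rose less than Itgb2 in every allo-WT mouse. Itgal less Itgam was -2.64 to -1.71 in syngeneic, -1.28 to -0.44 in allo-WT and -1.69 to -0.97 in allo-MCd mice, 1.34 higher in allo-WT than in syngeneic skin and without overlap between those groups. The Itgal to Itgb2 difference was nearly equal in allo-WT and allo-MCd skin, -1.90 ± 0.63 and -1.84 ± 0.16 (SD, n = 3 and n = 5). Its mean was lower in syngeneic skin, -2.62 ± 0.57 (SD, n = 3), but the syngeneic range (-3.14 to -2.01) overlapped those of both other groups.

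The windows before the gene starts were read for the members that had one in the table used, with Itgam shown for the leukocyte chains, Itgb1 for the stromal ones and Cd44 as the member that moved the other way. They hold 250 bases before to 50 bases after the start, from RefSeq on GRCm38.p6, and 10 of the 14 members had such a window, while Itgb2, Itgal, Selplg and Vcam1 had none. Capitals mark the letters GAGGAA on either strand (TTCCTC on the reverse), the core that PU.1, an ETS factor of myeloid cells, binds.
Itgam, chr7:128062390-128062689, plus strand: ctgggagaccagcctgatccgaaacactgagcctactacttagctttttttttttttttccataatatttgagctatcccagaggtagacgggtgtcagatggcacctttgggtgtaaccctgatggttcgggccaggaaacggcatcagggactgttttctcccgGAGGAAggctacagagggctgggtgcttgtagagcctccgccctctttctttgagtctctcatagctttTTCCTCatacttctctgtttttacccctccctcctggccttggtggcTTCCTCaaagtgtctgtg
Itgb1, chr8:128685404-128685703, plus strand: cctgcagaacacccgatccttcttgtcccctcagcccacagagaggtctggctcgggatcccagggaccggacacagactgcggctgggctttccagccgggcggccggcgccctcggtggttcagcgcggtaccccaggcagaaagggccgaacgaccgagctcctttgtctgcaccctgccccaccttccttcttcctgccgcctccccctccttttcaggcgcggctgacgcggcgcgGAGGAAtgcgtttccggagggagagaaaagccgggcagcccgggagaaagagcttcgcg
Cd44, chr2:102901616-102901915, minus strand: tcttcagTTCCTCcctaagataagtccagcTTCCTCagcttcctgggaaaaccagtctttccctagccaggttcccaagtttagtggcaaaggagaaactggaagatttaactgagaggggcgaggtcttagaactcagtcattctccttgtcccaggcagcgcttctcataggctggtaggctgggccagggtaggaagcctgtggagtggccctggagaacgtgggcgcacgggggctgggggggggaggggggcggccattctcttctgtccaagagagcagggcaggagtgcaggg
The Itgam window holds the letters 3 times, that of Cd44 2 times and that of Itgb1 1 time, and the windows of Itga5, Itgb7 and Sele also hold them. In all, 6 of the 10 members had a match, beside 28.28% of all 32851 windows of the same length. A count of 3 or more was found in 0.68% of all windows. These matches describe the letters alone, and Cd44 and Itgam, with several matches each, differed between the groups in opposite directions.

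Among the selectins and their ligand described here, Selplg of leukocytes fell in allo-MCd against allo-WT skin under either scaling, and the endothelial selectins did not hold to a call. Selplg encodes PSGL-1, the ligand by which leukocytes bind P-selectin. It was at 1426, 997 and 1254 in syngeneic, at 1975, 1422 and 1989 in allo-WT, and at 344, 411, 433, 418 and 699 in allo-MCd mice. All allo-MCd mice lay below all others, while allo-WT mouse 2 lay within the syngeneic range. Selplg was 3.96-fold lower in allo-MCd skin than in allo-WT skin (log2 difference -1.99, SE 0.24, adjusted p = 2.29e-05, or -1.14 with median scaling). Its difference of allo-MCd minus syngeneic was -1.44 (SE 0.24, adjusted p = 0.00138), or -0.85 with median scaling. The allo-WT minus syngeneic difference was 0.55, with a 95% interval of -0.03 to 1.12 and an adjusted p of 0.105. Sele encodes E-selectin, which inflamed endothelium puts on its surface. Its level was 46.5 to 58.4 in syngeneic, 49.8 to 157 in allo-WT and 19.1 to 52.95 in allo-MCd mice, and all groups overlapped. The lowest value, in allo-MCd mouse 4, lay close to the background of 17.4 in that mouse. The call for allo-MCd minus allo-WT (-1.20, SE 0.42, adjusted p = 0.0249) rested on allo-WT mouse 1, since without it the difference was -0.68 and the adjusted p was 0.151. Selp encodes P-selectin of platelets and endothelium, and was at 73.9 to 86.8, 60.04 to 167 and 54.2 to 106 in the respective groups. Its difference of allo-MCd minus allo-WT was -0.35 (95% interval -1.10 to 0.40, adjusted p = 0.393), and with median scaling 0.48.

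Of the counter-receptors that leukocyte integrins bind, Vcam1 moved with the leukocyte chains and Icam1 moved less. VCAM-1 is the ligand of the alpha4 integrins on activated endothelium, and some macrophages and stromal cells make it too. Vcam1 was at 119.7, 92.0 and 99.2 in syngeneic, at 406, 885 and 381 in allo-WT, and at 38.0, 67.7, 59.9, 73.4 and 82.9 in allo-MCd mice. No groups overlapped, and allo-WT mouse 2 was highest. Vcam1 was 4.96-fold higher in allo-WT than in syngeneic skin (log2 difference 2.31, SE 0.37, adjusted p = 0.000601) and 8.15-fold lower in allo-MCd skin than in allo-WT skin (-3.03, SE 0.33, adjusted p = 1.23e-05), the latter difference being -2.19 with median scaling. The difference of allo-MCd minus syngeneic was -0.72 (95% interval -1.44 to 0.01, adjusted p = 0.0957), and -0.13 with median scaling.

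Icam1, which encodes the ligand of LFA-1 and Mac-1 on endothelium, keratinocytes and leukocytes, was at 552, 501 and 508 in syngeneic, at 682, 1010.3 and 682 in allo-WT, and at 333, 316, 404, 462 and 528 in allo-MCd mice. The allo-WT mice lay above all others, and the other groups overlapped. The difference of allo-MCd minus allo-WT was -0.95 (SE 0.22, adjusted p = 0.00235), but -0.11 with median scaling (adjusted p = 0.654). That of allo-WT minus syngeneic was 0.58 (SE 0.24, adjusted p = 0.0697). The endothelium, where Sele, Selp, Vcam1 and Icam1 can be made, was covered by 3 of the 9 marker genes listed, all above background in every mouse. Their summed level was 1112 to 1727 in syngeneic, 522 to 613 in allo-WT and 455 to 1110 in allo-MCd skin, on the deposited scale lower in every allo-WT mouse than in every syngeneic mouse, while the highest allo-MCd mouse lay next to the lowest syngeneic one. In allo-MCd minus syngeneic, 1 of the 3 was called lower, beside 36.9% of all genes, with a median of -0.76. With median scaling none was, beside 13.5%, with a median of -0.17. In allo-WT minus syngeneic 2 of the 3 were called lower under either scaling, beside 14.9% of all genes, or 27.3% with median scaling. Flt1 was not called there (-0.14, adjusted p = 0.758). In allo-MCd minus allo-WT none was called on the deposited scale, and 2 were higher with median scaling, beside 35.6% of all genes. The part of these genes in the results was not tested.

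Cd44 was the member that rose in allo-MCd skin. CD44 is the receptor for hyaluronan and is found on leukocytes, fibroblasts and basal keratinocytes. Its probe was at 55.4, 49.8 and 46.3 in syngeneic, at 43.1, 32.2 and 66.4 in allo-WT, and at 121, 97.3, 72.3, 132 and 71.4 in allo-MCd mice. All allo-MCd mice lay above all others, although 2 of them by little, and the levels were not far above the background of 14.3 to 37.5. Cd44 was 2.09-fold higher in allo-MCd skin than in allo-WT skin (log2 difference 1.07, SE 0.31, adjusted p = 0.0101, exact permutation p = 0.0357), and its log2 difference was 1.89 with median scaling (adjusted p = 0.000567). Without allo-WT mouse 2 it was 0.83 with an adjusted p of 0.0529. Against syngeneic skin it was 0.91 higher (SE 0.31, adjusted p = 0.0332), a call lost when any 1 of the 3 syngeneic mice was left out, and also without allo-MCd mouse 1, 2 or 4 (adjusted p of 0.0624 to 0.106). With median scaling that difference was 1.498 (adjusted p = 0.00987). CD47, the signal on most cells that holds off phagocytes through SIRP alpha and that also associates with integrins, changed least among the members called in allo-MCd minus allo-WT. Cd47 was at 2434 to 2991 in syngeneic, 2079 to 3189.8 in allo-WT and 1665 to 2324 in allo-MCd mice. Its difference of allo-MCd minus allo-WT was -0.45 (SE 0.18, adjusted p = 0.0462), less than that of the median gene, and with median scaling it was 0.39 (adjusted p = 0.0597). The call was lost when any 1 of 9 of the 11 mice was left out (all but allo-WT mouse 1 and allo-MCd mouse 5), with adjusted p of 0.0508 to 0.198, and without allo-WT mouse 3 the difference was -0.29. It was also lost with housekeeping scaling, limma without the trend, the 2 groups compared alone, voom, the methods' test, quantile normalization (0.36, adjusted p = 0.0623) and the mouse number as a block (adjusted p = 0.057).

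Ptprc, which encodes the pan-leukocyte protein CD45, gave a measure of leukocyte RNA within each mouse. Its level was 1866, 1729 and 2069.7 in syngeneic, 3914, 2636 and 3677 in allo-WT, and 472, 717, 720.05, 738 and 1094 in allo-MCd skin, without overlap. Its difference of allo-MCd minus allo-WT was -2.22 (SE 0.24, adjusted p = 1.2e-05). In such bulk RNA, fewer cells of a type and less RNA per cell cannot be told apart. Set against Ptprc, Itgam differed little between the groups, with means of -1.21 ± 0.36, -1.16 ± 0.38 and -1.20 ± 0.26 (SD, n = 3, n = 3 and n = 5) in syngeneic, allo-WT and allo-MCd skin. Itga4 and Selplg moved by at most 0.31 in size in any comparison of this kind. Yet Itga4 lay higher against Ptprc in every allo-WT mouse than in every syngeneic mouse (by 0.27). Selplg lay higher in every allo-MCd mouse (by 0.23) and in every syngeneic mouse than in every allo-WT mouse (-0.286 in allo-WT less syngeneic). Itgb2 less Ptprc was -0.92 to -0.54 in syngeneic, -0.37 to 0.17 in allo-WT and -0.89 to -0.40 in allo-MCd mice, above the other groups in every allo-WT mouse.

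Itga5, listed with the stromal chains, also moved little against Ptprc, although its spread within groups was wide. Its differences were 0.21 between the allogeneic groups, -0.08 in allo-WT less syngeneic and 0.13 in allo-MCd less syngeneic skin. Itgal and Vcam1 were 1.39 and 1.48 higher against Ptprc in allo-WT than in syngeneic skin, without overlap. Between the allogeneic groups, Itgb1, Icam1, Cd44, Cd47 and Selp were 1.24, 1.26, 3.28, 1.76 and 1.87 higher relative to Ptprc in allo-MCd skin than in allo-WT skin, without overlap. Ptprc itself fell by more than the median gene there (-2.22 against -0.72), so that the median gene stood higher against it too. The summed level of the 8 macrophage and monocyte genes on the panel was 23165 to 29927 in syngeneic, 51953 to 78383 in allo-WT and 7698 to 14177 in allo-MCd skin, all 8 above background in every mouse. It had the group order of Itgb2, Itgam and Itga4, and its part in their differences was not tested. The summed level of the 8 neutrophil genes on the panel was 532 to 762 in syngeneic, 3955 to 134198 in allo-WT and 566 to 1189 in allo-MCd skin. The top of the allo-WT range was allo-WT mouse 1, where S100a8 and S100a9, which encode the calprotectin subunits, made up nearly all of the sum (76492 and 55154), and without that mouse the highest was 29425. Of those 8, 3 lay above background in every syngeneic mouse, 6 in every allo-WT mouse and 3 in every allo-MCd mouse. In allo-WT mice 2 and 3, Ly6g, Mpo, Elane and Camp lay between 5.97 and 33.4. In the same mice Csf3r was at 514 and 668 and Cxcr2 at 146 and 128. The paper reported no significant difference between groups in neutrophil counts on stained skin sections. Itgb2 and Itgam RNA is also made by neutrophils, and the part of the neutrophil sum in their differences was not tested. Of the T cell and NK cell genes listed only Nkg7 was on the panel, at 146 to 217, 360 to 721 and 55.6 to 180 in the respective groups.

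**Figure D4:**
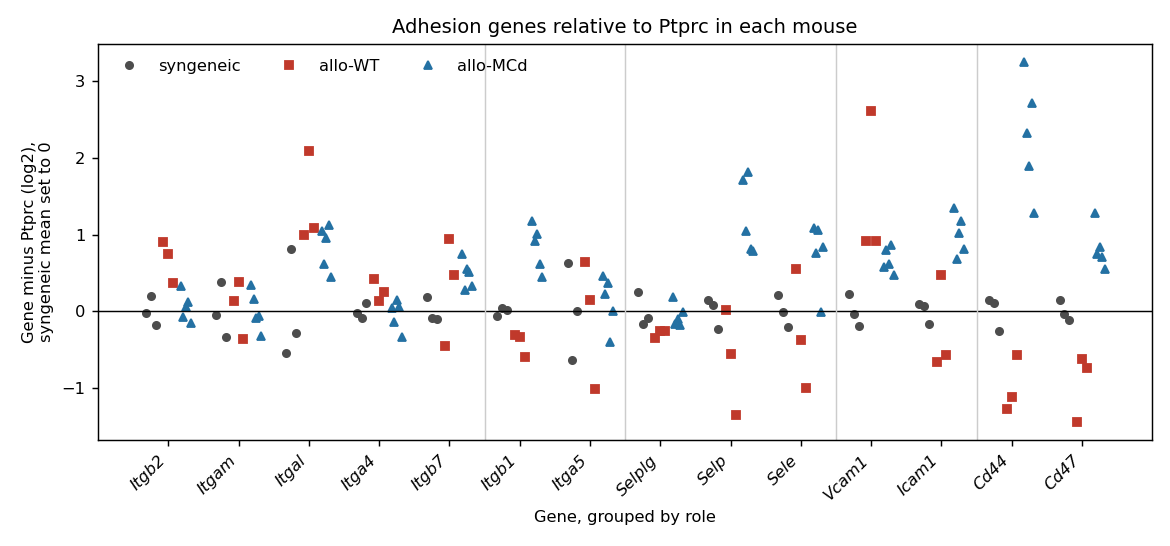
Log2 level of each adhesion gene less that of Ptprc in the same mouse (y axis, syngeneic mean set to 0) by gene (x axis) and group, with a point for each mouse. The mean of Itgam lies near 0 in all groups, whereas that of Cd44 lies 2.30 above 0 in the allo-MCd mice.

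Over the 11 mice, genes outside the adhesion set that followed Itgb2 most closely after median scaling included Ccl6, C1qc, Fcgr3 and C3ar1, with Pearson's r of 0.98 to 0.995. They encode a chemokine, a chain of complement C1q, an Fc receptor and the C3a receptor. As the 3 groups did not overlap for Itgb2, these values mostly describe the difference between groups.

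Genes that act with the adhesion molecules were taken from 4 lists, whose counts in allo-MCd minus allo-WT stand beside 50% of all genes called lower and 10.9% higher, or 30.3% and 35.6% with median scaling. Of 13 surface partners of leukocytes, 11 were lower in allo-MCd skin than in allo-WT skin and none higher (7 and 1 with median scaling). The median difference was -1.30, or -0.45 with median scaling. Besides the chemokine receptor gene Cxcr2, Cd84 of the SLAM family (-3.12, SE 0.26, adjusted p = 1.48e-06) and the beta-glucan receptor gene Clec7a (-2.95, SE 0.34, adjusted p = 1.7e-05) had the lowest differences of the partners. Cxcr2 was at 13.5, 22.7 and 17.6 in syngeneic, at 499, 146 and 128 in allo-WT, and at 16.7, 39.9, 27.9, 12.8 and 23.0 in allo-MCd mice, so that it stood apart in allo-WT skin. It was called lower in allo-MCd skin (adjusted p = 0.000122), but as it lay above background in 3 of the 5 allo-MCd mice, the size of its difference was not read. Of 7 cytoplasmic partners, such as the kinases Syk and Btk and the exchange factor Vav1, 5 were lower and none higher (4 and 1 with median scaling). Their median was -1.58, or -0.74 with median scaling. Against syngeneic skin all 7 were lower in allo-MCd skin on the deposited scale and 5 of 7 with median scaling, beside 36.9% and 13.5% of all genes.

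The matrix and junction genes did not share that pattern. Of 7 genes of matrix ligands, Tnc was lower in allo-MCd skin than in allo-WT skin, Col4a2 was higher and 5 were not called, with a median of -0.22. With median scaling 1 was lower and 2 were higher, Col4a1 being added (0.96, adjusted p = 0.0314), and the median turned to 0.62. Tnc encodes tenascin-C, a matrix glycoprotein of wounds, and its means were 634 ± 303, 18694 ± 17181 and 2829 ± 952 in syngeneic, allo-WT and allo-MCd skin (SD, n = 3, n = 3 and n = 5). It was the only 1 of the 7 called higher in allo-WT against syngeneic skin (4.59, SE 0.54, adjusted p = 0.000123). Col1a2 (-1.97, adjusted p = 0.0212) and Col4a2 (-1.25, adjusted p = 0.026) were called lower there, beside 28.3% of all genes higher and 14.9% lower. Tnc was also higher in allo-MCd skin than in syngeneic skin (2.20, SE 0.48, adjusted p = 0.00411). Col4a2, a chain of basement membrane collagen, had a difference of allo-MCd minus allo-WT of 1.07 (SE 0.36, adjusted p = 0.0225). In allo-MCd minus syngeneic it was -0.18 (adjusted p = 0.702). Of 8 endothelial and junctional genes, 2 were lower and 2 higher, and 6 were higher and 1 lower with median scaling. The highest were Alcam, an adhesion molecule of the immunoglobulin superfamily (1.71, SE 0.37, adjusted p = 0.00169), and Cdh5, which encodes VE-cadherin and did not pass on the deposited scale (0.65, SE 0.35, adjusted p = 0.122) but did with median scaling (1.49, adjusted p = 0.000873).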

How the data were processed

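RNA (100 ng per mouse, Trizol per the labels, Ribozol per the methods) from 11 mice was counted on the panel, and the authors normalized the counts in nSolver; version, reference genes and background handling are not given in the sources used here. The deposited values were used as signal (normalized counts); the depth behind them was not listed. Steps between values gave the counts behind them (99.87 to 100.0% whole within 0.011). Of 754 genes, 20 housekeeping genes were set aside by an own list, and 696 with at least 20 normalized counts in at least 3 mice were tested. Values were tested as log2(value + 1) in limma 3.58.1 (R 4.3.3) with a mean trend, all 3 groups in 1 fit, and Benjamini-Hochberg adjustment over the 696 genes at 0.05. A fold change on this scale understates changes of low genes. Single genes were also given a two-sided exact permutation test. Limma was checked on simulated data. Background was the mean of 8 negative controls plus 2 SD. Alternatives were median, quantile and housekeeping scaling, other pseudocounts and filters, subtraction of background, limma without the trend, the compared groups alone, voom on recovered counts, the methods' test (a 3-group test with Tukey's comparison), the mouse number as a replicate block, and leaving out each mouse. The control probes are listed as raw counts beside the normalized genes. The main test used no count model, and voom on recovered counts was an alternative only. All members are described. Partners named are the 3 highest and 3 lowest. Tnc, Col1a2, Col4a1, Syk, Btk and Vav1 were named after their values were seen, as were the single neutrophil and endothelial markers. The members and lists were chosen with earlier results of these data known. The mice are separate animals, but whether they came from separate transplants is not given in the sources used here, so p-values measure the spread between these samples. Of the panel's symbols, 744 matched RefSeq, as did 14 of the 14 members described. Of the genes that the patterns take, 1 is not reported here.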

Additional observations from a re-analysis of the deposited data

Results flagged for a closer look

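Within the 5 allo-MCd mice, Selplg in mouse 5 (699) stood apart from the other 4 (344 to 433). Its gap to the nearest mouse was 0.749 of the group's range, above the 95% critical value of 0.71 for 5 samples. That mouse also had the highest Ptprc (1094) and the highest median over all genes tested (390.8) of the 5. Its Selplg less Ptprc (-0.645) lay within the range of the other 4 (-0.818 to -0.454). Chance flags about 1 in 20 groups, and 14 groups of 5 were examined, all from the same mice and so not independent.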

How the results depend on the processing

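Groups of 3 mice limited every test. The 5 leukocyte chains, Selplg and Vcam1 were called lower in allo-MCd skin than in allo-WT skin under every setting run. With each mouse left out in turn, the members called ranged from 10 to 12 lower and 0 to 1 higher in allo-MCd minus allo-WT (0 higher without allo-WT mouse 2), from 6 to 7 higher in allo-WT minus syngeneic, and from 4 to 8 lower and 0 to 1 higher in allo-MCd minus syngeneic. In allo-MCd minus allo-WT, the methods' test called 9 lower and 0 higher, and median scaling together with leaving out allo-WT mouse 1, chosen after seeing the data, called 7 lower and 2 higher, the second being Selp. In allo-MCd minus syngeneic, 4 were called lower and 1 higher under median scaling, quantile normalization, and median scaling without allo-WT mouse 1, while the methods' test called 1 lower and 0 higher. The mouse numbers did not pair the samples: deviations of same-numbered mice correlated at -0.117 to 0.211. With that number as a replicate block, 10 were called lower and 1 higher in allo-MCd minus allo-WT, 6 higher in allo-WT minus syngeneic, and 6 lower and 0 higher in allo-MCd minus syngeneic. With Itgb1 alone as the stromal side, the within-mouse difference of allo-MCd minus allo-WT moved from -1.06 to -1.573. Signs turned under some settings, also for called members (Cd47 and Sele in allo-MCd minus allo-WT, Cd47 and Itgb1 in allo-MCd minus syngeneic). In allo-MCd minus allo-WT these were Cd47 (0.390 with median scaling, 0.356 with quantile normalization, 0.185 with median scaling without allo-WT mouse 1), Sele (0.087 with the last) and Selp (0.483, 0.691 and 0.855 in that order, and, with a mouse left out, from -0.648 without allo-WT mouse 3 to 0.084 without allo-WT mouse 1). In allo-WT minus syngeneic these were Cd44 (from -0.424 without allo-WT mouse 3 to 0.087 without allo-WT mouse 2), Cd47 (from -0.264 without allo-WT mouse 3 to 0.045 without allo-WT mouse 1), Sele (-0.148 with median scaling without allo-WT mouse 1) and Selp (-0.045 with median scaling, -0.277 with quantile normalization, -0.417 with median scaling without allo-WT mouse 1 and, with a mouse left out, from -0.229 without allo-WT mouse 1 to 0.502 without allo-WT mouse 3). In allo-MCd minus syngeneic, with median scaling (with or without allo-WT mouse 1) and then quantile normalization, these were Icam1 (0.216, 0.184), Itgal (0.045, 0.111) and Selp (0.438, 0.414), with median scaling only Cd47 (0.038) and Itgb1 (0.042), and with quantile normalization only Sele (0.010). The causes were not tested.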
